A study of Mus musculus with 10 samples.

Results

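The genes described here are 10 smooth muscle contractile genes, Acta2, Actg2, Myh11, Des, Cnn1, Tagln, Lmod1, Synm, Mylk and Myocd. They were taken by gene symbol from the table of 47069 genes, in which each had 1 row, and Acta2 was then compared with the other 9. RNA-seq was performed on 10 libraries of C57BL/6 mouse intestinal organoids cultured for 50 days in Matrigel with Noggin, EGF and R-spondin-1, and each of the 5 groups had 2 libraries. One group received saline (control), and the others received DMBA, tamoxifen in a set labelled short (TAM short), tamoxifen in a set labelled long (TAM long), and the combination of DMBA and tamoxifen (DMBA+TAM). The label of the DMBA group also carries the word long, and the library titles hold the letter S in control and TAM short and the letter L in DMBA and TAM long, while those of DMBA+TAM read Lgr5 with a number. The titles of both tamoxifen sets begin with DSS, although their treatment labels read dosage-sensitive TAM. The text of the study uses DSS for dextran sulfate sodium, and whether the titles mean it is not given in the sources used here, nor is what short, long, S and L stand for. The results and figure legends of the study give the genotype Lgr5-EGFP-CreERT2; Ppp2r1a flox/flox for its control, DMBA, tamoxifen and combined organoids. They do not mention a short and a long tamoxifen set, so they do not state the genotype for each of the 5 groups here. In this genotype tamoxifen activates a Cre expressed from the promoter of the crypt stem cell gene Lgr5, and Cre removes part of the scaffold subunit of protein phosphatase 2A. DMBA is a polycyclic aromatic carcinogen. Whether the libraries of a group came from separate animals or cultures is not given in the sources used here, so p-values measure only the spread between these libraries.

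Smooth muscle contracts when myosin filaments pull on actin filaments. Calcium and calmodulin activate myosin light chain kinase, which phosphorylates the myosin light chain and starts the cycle of cross-bridges, while calponin, transgelin and leiomodin bind actin and intermediate filaments of desmin and synemin tie the filaments to the cell's dense bodies. Myocardin binds serum response factor, which sits on a DNA element called the CArG box, and drives many of these genes. In the intestine these genes are typical of the muscle layers. Some of them, Acta2 and Tagln included, are also made by myofibroblasts or pericytes.

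The DMBA+TAM libraries held 1592366 and 1915270 counts and the other 8 libraries 8828247 to 10923673, so that 3 counts, taken as the floor, stood for 1.58 and 1.32 normalized CPM (counts scaled to the library totals after TMM correction) in DMBA+TAM and for 0.258 to 0.378 elsewhere. All 10 members passed the filter on low counts, as did 16179 genes in all. Markers of other cells differed between the groups. Of 10 epithelial markers, the summed level was 33.7 and 22.4 normalized CPM in DMBA+TAM against 13315 to 22816 elsewhere, with 6 and 7 of them at 3 counts or fewer in DMBA+TAM, although the libraries are labelled intestinal organoid. Of 10 fibroblast markers it was 33038 and 33911 against 691 to 2274, and of 8 myofibroblast markers 6891 and 6323 against 124 to 774. A list of 12 skeletal muscle genes separated the DMBA+TAM libraries from each other, with 7.90 in replicate 1 and 8855 in replicate 2, against 9.25 to 23.3 in the other 8. Genes of the small intestine (9 genes) summed to 32738 and 35295 in control and 13028 and 9999.7 in TAM short, but to 474 to 1165 in DMBA and TAM long, where genes of the colon (5 genes) summed to 2111 to 11839 against at most 67.5 elsewhere. The part of these differences in the results below was not tested, and in bulk RNA fewer cells of a type and less RNA per cell cannot be told apart. Segment markers and treatment cannot be told apart for DMBA and TAM long, since no library of either group has the small intestine pattern. The split of the segment markers follows the letters S and L of the titles, so that every comparison of DMBA or TAM long with control or TAM short is also one of L with S.

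Acta2 (ENSMUSG00000035783, chromosome 19 of build GRCm38, 34241090 to 34255336, minus strand) encodes smooth muscle alpha actin. It had 281 and 253 normalized CPM in control, 265 and 165 in TAM short, 1588 and 1023 in DMBA, 1247 and 1724 in TAM long, and 732 and 572 in DMBA+TAM. DMBA+TAM thus lay between the low pair of groups (control and TAM short) and the high pair (DMBA and TAM long), without overlap with any of the 4. Tagln (ENSMUSG00000032085, chromosome 9, 45929628 to 45936058, minus strand), which encodes the actin-binding protein transgelin (SM22 alpha), followed the same order, with 199 and 179 in control, 286 and 181 in TAM short, 1646 and 1222 in DMBA, 1332 and 2138 in TAM long, and 601 and 448 in DMBA+TAM. These were the 2 members whose levels in DMBA+TAM lay above both control libraries.

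The proximal promoter of Acta2 is shown because Acta2 parted from most other members. Of the 10 members, 6 had a RefSeq promoter (GRCm38.p6) in the table used here, namely Acta2, Cnn1, Des, Lmod1, Mylk and Synm. The search was for the CArG box, that is CC, 6 letters that are each A or T, and GG, which reads the same on both strands. No exact match was found in the 6 promoters of 300 bases (250 before to 50 after the start), and 1.63% of all 32851 promoters of this length hold one. With 1 departure allowed among the 6 inner letters, Acta2 had 2 matches, from 84 to 75 and from 34 to 25 bases before the start, Synm had 1, from 239 to 230 bases before it, and 9.98% of all promoters had at least 1. The 250 bases before the start follow for Acta2 (minus strand, chr19:34255374-34255623), for Synm, the other member with a match (minus strand, chr7:67759743-67759992), and for Cnn1, a member that went opposite to Acta2 in DMBA+TAM (plus strand, chr9:22099003-22099252), with matches in capitals.
Acta2: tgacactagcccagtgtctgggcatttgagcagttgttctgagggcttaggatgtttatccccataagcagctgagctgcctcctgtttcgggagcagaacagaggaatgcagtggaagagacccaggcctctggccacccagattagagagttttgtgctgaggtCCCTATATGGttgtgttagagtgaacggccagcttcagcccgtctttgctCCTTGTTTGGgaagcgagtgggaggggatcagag
Synm: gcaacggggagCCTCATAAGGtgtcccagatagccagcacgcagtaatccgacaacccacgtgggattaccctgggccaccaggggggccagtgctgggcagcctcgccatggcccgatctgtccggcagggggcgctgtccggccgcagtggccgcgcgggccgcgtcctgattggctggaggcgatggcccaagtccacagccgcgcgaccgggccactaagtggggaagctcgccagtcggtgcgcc
Cnn1: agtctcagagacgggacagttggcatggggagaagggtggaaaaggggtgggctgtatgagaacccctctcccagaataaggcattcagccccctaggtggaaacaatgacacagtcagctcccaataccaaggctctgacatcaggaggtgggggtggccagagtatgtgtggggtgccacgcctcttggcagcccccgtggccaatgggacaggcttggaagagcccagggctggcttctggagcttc
A match of letters is a description of the sequence, and these counts do not measure binding.

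The other filament genes were high in the same groups as Acta2 but went apart from it in DMBA+TAM. Actg2 (ENSMUSG00000059430, chromosome 6, 83512905 to 83536265, minus strand), the smooth muscle gamma actin of the gut wall, had 182 and 158 normalized CPM in control, 330 and 158 in TAM short, 1624 and 874 in DMBA, 1017 and 1598 in TAM long, and 42.1 and 34.3 in DMBA+TAM. Both DMBA+TAM libraries, with 80 and 78 counts, were below each of the other 8 libraries. Myh11 (ENSMUSG00000018830, chromosome 16, 14194527 to 14291408, minus strand), the myosin heavy chain of smooth muscle, had 1067 and 853 in control, 878 and 442 in TAM short, 4320 and 2355 in DMBA, 2679 and 3851 in TAM long, and 44.8 and 47.0 in DMBA+TAM. Here too the DMBA+TAM libraries (85 and 107 counts) were the lowest pair, with the smallest SD of the 5 groups (1.60 normalized CPM).

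The intermediate filament genes split the DMBA+TAM libraries. Des (ENSMUSG00000026208, chromosome 1, 75360329 to 75368579, plus strand), which encodes the intermediate filament desmin of all muscle types, had 251 and 220 normalized CPM in control, 383 and 189 in TAM short, 1782 and 1021 in DMBA, 1241 and 1995 in TAM long, and 30.0 and 493 in DMBA+TAM, from 57 and 1122 counts. DMBA+TAM replicate 1 was below all 8 libraries of the other groups and replicate 2 lay between the low and the high groups. Synm (ENSMUSG00000030554, chromosome 7, 67730161 to 67759742, minus strand), which encodes synemin, a partner of desmin, had 199 and 158 in control, 179 and 77.6 in TAM short, 746 and 421 in DMBA, 450.2 and 753 in TAM long, and 39.5 and 164 in DMBA+TAM, from 75 and 374 counts. Its DMBA+TAM replicate 1 was the lowest library and replicate 2 was within the control range. Des and Synm, which skeletal muscle also expresses, were higher in DMBA+TAM replicate 2 than in replicate 1. The fast myosin heavy chain Myh4 had 2 counts in replicate 1 and 7004 in replicate 2, and skeletal muscle actin Acta1 had 1 and 4740. Lmod1 was also higher in replicate 2 (7 and 24 counts), and 5 of the 10 members were higher in replicate 1. The part of skeletal muscle transcripts in the levels of Des and Synm was not tested.

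Among the genes of filament-binding proteins and the kinase, Cnn1 (ENSMUSG00000001349, chromosome 9, 22099281 to 22109630, plus strand), which encodes calponin, had 90.8 and 91.6 normalized CPM in control, 134 and 70.4 in TAM short, 1089 and 650.0 in DMBA, 828 and 1503 in TAM long, and 11.6 and 7.03 in DMBA+TAM, from 22 and 16 counts. Lmod1 (ENSMUSG00000048096, chromosome 1, 135324807 to 135368065, plus strand), which encodes leiomodin, a nucleator of actin filaments, had 31.0 and 31.5 in control, 23.2 and 11.3 in TAM short, 112 and 74.6 in DMBA, 73.3 and 92.5 in TAM long, and 3.69 and 10.6 in DMBA+TAM, from 7 and 24 counts. Both genes had their lowest libraries in DMBA+TAM, at counts that leave a wide counting interval (95% Poisson interval of 1.48 to 7.60 normalized CPM for Lmod1 in DMBA+TAM replicate 1). Mylk (ENSMUSG00000022836, chromosome 16, 34745210 to 35002420, plus strand), the gene of myosin light chain kinase, had 1124 and 1076 in control, 775 and 514 in TAM short, 1671 and 854 in DMBA, 1298 and 1582 in TAM long, and 79.5 and 68.6 in DMBA+TAM. In Mylk, control and DMBA overlapped, unlike in the other 9 members, and DMBA+TAM lay far below the other 4 groups. Mylk also has a form made in non-muscle cells from the same locus, and counts per gene do not separate the forms.

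Myocd (ENSMUSG00000020542, chromosome 11, 65176561 to 65269989, minus strand), the gene of the transcriptional coactivator myocardin, was the lowest member in counts. It had 52 and 38 counts (5.87 and 4.57 normalized CPM) in control, 41 and 10 (4.62 and 1.26) in TAM short, 160 and 77 (14.3 and 8.63) in DMBA, 154 and 155 (13.3 and 15.2) in TAM long, and 4 and 7 (2.11 and 3.08) in DMBA+TAM. DMBA and TAM long lay above control in each library, and the Poisson intervals of both DMBA+TAM libraries (0.574 to 5.39 and 1.24 to 6.34) overlapped those of control (4.38 to 7.69 and 3.23 to 6.27).

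**Figure D1:**
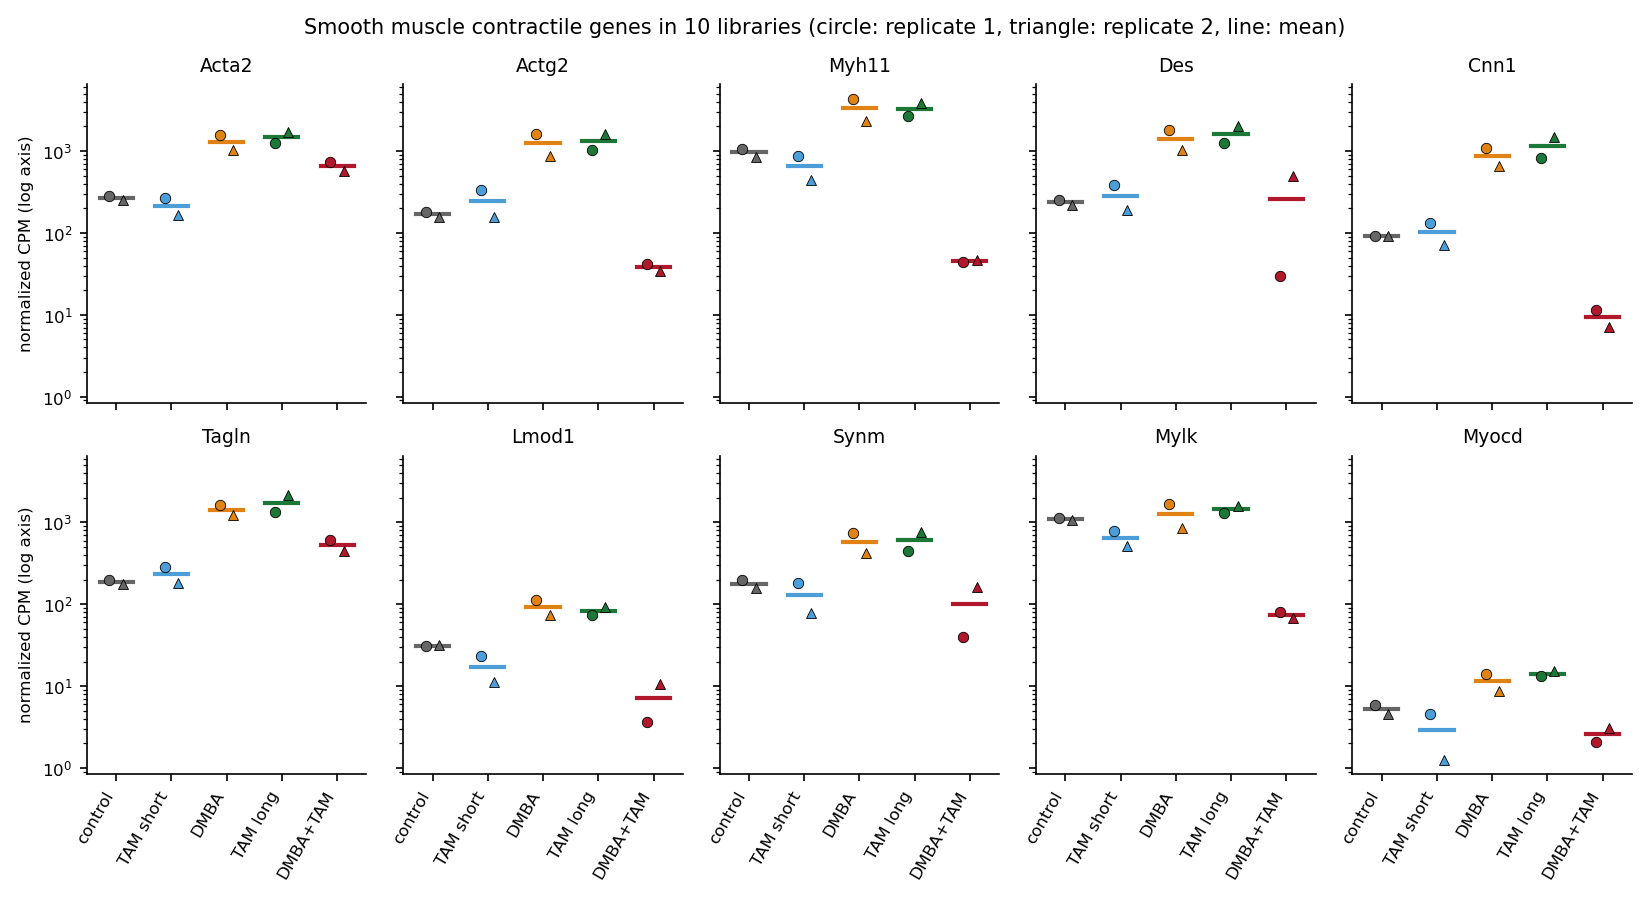
Normalized CPM (log axis) of the 10 members in each of the 10 libraries, 1 panel per gene, with circles for replicate 1, triangles for replicate 2 and a line for the mean of 2. DMBA and TAM long lie above control in every library except in the Mylk panel, where DMBA overlaps control, and in DMBA+TAM Acta2 and Tagln stay above control (652 and 524 on average) while Actg2, Myh11, Cnn1, Lmod1 and Mylk fall below it.

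DMBA+TAM was compared with control for each gene. Acta2 rose 2.44-fold (log2 1.29, standard error 0.28, adjusted p = 0.00257, Benjamini-Hochberg, in the quasi-likelihood test of edgeR) and Tagln 2.77-fold (log2 1.47, standard error 0.29, adjusted p = 0.00135). Myh11 fell 20.9-fold (log2 -4.39, standard error 0.42, adjusted p = 8.92e-06), Mylk 14.9-fold (log2 -3.89, adjusted p = 4.53e-06) and Cnn1 9.92-fold (log2 -3.31, adjusted p = 0.000175). Actg2 fell 4.45-fold (log2 -2.15, adjusted p = 0.00118) and Lmod1 4.24-fold (log2 -2.09, adjusted p = 0.00307). So 2 of 10 members were higher and 5 lower, against 29.0% of all 16179 genes higher and 35.3% lower. The median of the 10 was -1.54 on the log2 scale and that of all genes -0.17. Des (log2 0.16, standard error 0.85, adjusted p = 0.887), Synm (log2 -0.80, standard error 0.59, adjusted p = 0.263) and Myocd (log2 -0.99, standard error 0.66, adjusted p = 0.214) did not pass. With no filter on low counts, Synm (log2 -0.87, adjusted p = 4.01e-07) and Myocd (log2 -1.06, adjusted p = 0.0351) were called lower, which makes 7 lower members. DMBA+TAM replicate 2, the library with the skeletal muscle transcripts, moved Des and Synm: without it, Des was at -2.99 (adjusted p = 0.00244) and Synm at -2.19 (adjusted p = 0.0157), and Lmod1 moved to -3.09. Without DMBA+TAM replicate 1, Lmod1 was at -1.57. In the same comparison 8 of 8 myofibroblast markers, 9 of 10 fibroblast markers and 6 of 10 pericyte markers rose and 10 of 10 epithelial markers fell, and their part in the changes of Acta2, Tagln and the other members was not tested.

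Compared with DMBA alone and with TAM long alone, the combination had lower levels of all 10 members (29.9% of all genes lower in each comparison). Acta2 was the member that fell least, 2.00-fold against DMBA (standard error 0.28 on the log2 scale, adjusted p = 0.0121) and 2.28-fold against TAM long (log2 -1.19, adjusted p = 0.00497), followed by Tagln (2.74-fold and 3.31-fold lower). Cnn1 fell most, 94.6-fold against DMBA (log2 -6.56, standard error 0.51, adjusted p = 3.11e-06) and 127-fold against TAM long (log2 -6.99, adjusted p = 2.02e-06). Myh11 was 72.6-fold and 71.0-fold lower, Actg2 32.8-fold and 34.3-fold, Mylk 17.1-fold and 19.5-fold, and Lmod1 12.7-fold and 11.3-fold. For Synm the falls were 5.68-fold and 5.85-fold, for Des 5.33-fold (adjusted p = 0.0428) and 6.16-fold (adjusted p = 0.0315), and for Myocd 4.36-fold (adjusted p = 0.0140) and 5.38-fold. Against DMBA, the call of Acta2 was lost without DMBA replicate 1 (log2 -0.64, adjusted p = 0.0787), without DMBA+TAM replicate 2 (log2 -0.83, adjusted p = 0.0914) and with limma on log2(FPKM + 1) (log2 -0.79, adjusted p = 0.0548). That of Myocd was lost without DMBA replicate 1 (log2 -1.70), without DMBA+TAM replicate 1 (log2 -1.90) and without DMBA+TAM replicate 2 (log2 -2.44). For Des the call against DMBA was lost without DMBA replicate 1 (log2 -1.94, adjusted p = 0.115), with DESeq2 (adjusted p = 0.0672), with library size only (adjusted p = 0.0572) and when only the groups compared were fitted (adjusted p = 0.118). Its call against TAM long was lost without TAM long replicate 2 (log2 -2.22, adjusted p = 0.105) and when only the groups compared were fitted (adjusted p = 0.0663). Without DMBA+TAM replicate 2, the falls of Des and Synm were steeper, at log2 -5.54 and -3.88 against DMBA (-2.41 and -2.51 with it) and at -5.74 and -3.92 against TAM long (-2.62 and -2.55 with it).

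Against TAM short, 2 members were higher in DMBA+TAM (29.3% of all genes) and 5 lower (33.8%), in the same directions as against control. Acta2 was 3.03-fold higher (adjusted p = 0.000735) and Tagln 2.25-fold (adjusted p = 0.00524). Myh11 was 14.4-fold lower, Cnn1 11.1-fold, Mylk 8.71-fold, Actg2 6.40-fold and Lmod1 2.36-fold (adjusted p = 0.0481). The last call was lost without TAM short replicate 1 (log2 -0.63) and without DMBA+TAM replicate 1 (log2 -0.72). It was also lost with scaling by library size only (log2 -0.84, adjusted p = 0.191) and with thinned counts (adjusted p = 0.0871). So it was with limma on log2(FPKM + 1) or log2(FPKM + 0.1) (adjusted p = 0.159 and 0.133) and with the replicate block (adjusted p = 0.0591). The call of Tagln was lost without TAM short replicate 2 (log2 0.87). Without DMBA+TAM replicate 2, Des (log2 -3.27, adjusted p = 0.00164) and Synm (log2 -1.72, adjusted p = 0.0414) were lower as well.

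The single treatments were compared with control next. In DMBA, 8 of 10 members rose (24.5% of all genes), from 2.99-fold in Lmod1 (log2 1.58, adjusted p = 0.00362) to 9.53-fold in Cnn1 (log2 3.25, standard error 0.39, adjusted p = 0.000138). Acta2 rose 4.89-fold (log2 2.29, standard error 0.29, adjusted p = 0.000173), Tagln 7.58-fold, Actg2 7.36-fold, Des 5.95-fold (adjusted p = 0.0377), Myh11 3.48-fold (adjusted p = 0.00273) and Synm 3.27-fold (adjusted p = 0.0352). Mylk (log2 0.20, standard error 0.29, adjusted p = 0.606) and Myocd (log2 1.14, standard error 0.43, adjusted p = 0.0523) did not pass. Myocd in DMBA was called higher with library size only (adjusted p = 0.0244), with no filter on low counts (adjusted p = 0.000506), when only the groups compared were fitted (adjusted p = 0.0378), with the replicate block (adjusted p = 0.0371) and with limma on log2(FPKM + 1) (adjusted p = 0.0337), but not with DESeq2, limma on log2(FPKM + 0.1) or thinned counts. In TAM long, 9 of 10 rose (23.2% of all genes), Cnn1 again most with 12.8-fold (log2 3.68, adjusted p = 7.56e-05), Tagln 9.18-fold, Actg2 7.70-fold, Des 6.87-fold (adjusted p = 0.0295), Acta2 5.57-fold (log2 2.48, standard error 0.29, adjusted p = 0.000117), Myh11 3.40-fold, Synm 3.37-fold (adjusted p = 0.0331), Myocd 2.72-fold (adjusted p = 0.0199) and Lmod1 2.65-fold. Mylk was at log2 0.39 (standard error 0.29, adjusted p = 0.305). Both comparisons share the control libraries and go along with the switch of segment markers given above.

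Several of these calls rested on single libraries or on the method. In DMBA, the call of Des was lost with limma (adjusted p = 0.0575 and 0.0638 with a pseudocount of 1 and 0.1 FPKM) and that of Synm with DESeq2 (adjusted p = 0.0554). The calls of Des and Synm were lost without DMBA replicate 1 (log2 2.09 and 1.21) and without control replicate 1 (log2 2.67 and 1.88) or 2 (log2 2.48 and 1.55) in DMBA, and without TAM long replicate 2 (log2 2.37 and 1.31) and control replicate 1 (log2 2.88 and 1.93) or 2 (log2 2.69 and 1.59) in TAM long. In TAM long the count of calls went from 9 to 5 when control replicate 1 or control replicate 2 was left out, since Lmod1 (log2 1.40 and 1.42, adjusted p = 0.0511 and 0.0503) and Myocd (log2 1.64 and 1.27) then also missed the threshold. Myocd also missed it without TAM long replicate 1 (log2 1.54) or 2 (log2 1.32), and after thinning all libraries to the smallest total (log2 0.88, adjusted p = 0.308). In DMBA without replicate 2, both Mylk (log2 0.60, adjusted p = 0.0478) and Myocd (log2 1.45, adjusted p = 0.0202) were called higher.

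No member was called between TAM short and control by edgeR in the fit of all 10 libraries after the filter on low counts. Of all genes, 6.52% were higher and 7.80% lower there. With no filter, Actg2 was called higher (adjusted p = 0.00810) and Myh11, Lmod1, Synm and Mylk lower (adjusted p from 1.60e-05 to 0.0252). When only the groups compared were fitted, Lmod1 (adjusted p = 0.0168) and Mylk (adjusted p = 0.00180) were called lower. Without TAM short replicate 1, Myocd was at log2 -2.04 (-0.80 with it). In the filtered fit of all libraries, 2 members were lower at an unadjusted p under 0.05, Lmod1 (log2 -0.85, adjusted p = 0.141) and Mylk (log2 -0.77, adjusted p = 0.115). DESeq2 called 1, Mylk (adjusted p = 0.0453), and limma called 0. Acta2 was at log2 -0.31 (standard error 0.28, adjusted p = 0.515). Between TAM long and DMBA, edgeR, DESeq2 and limma each called 0 of the 10, with 0 at an unadjusted p under 0.05, and 1.24% of all genes were higher and 1.46% lower. The members' differences between these groups ran from -0.17 in Lmod1 (standard error 0.32) to 0.42 in Cnn1 (standard error 0.36), and the standard errors reached 0.56 in Synm and 0.84 in Des. In DMBA against control, Myocd at 1.14 with a standard error of 0.43 missed the threshold, so that changes well above the standard error could go uncalled. TAM long against TAM short, a comparison added after the data were seen, gave 10 of 10 members higher (22.0% of all genes higher).

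**Figure D2:**
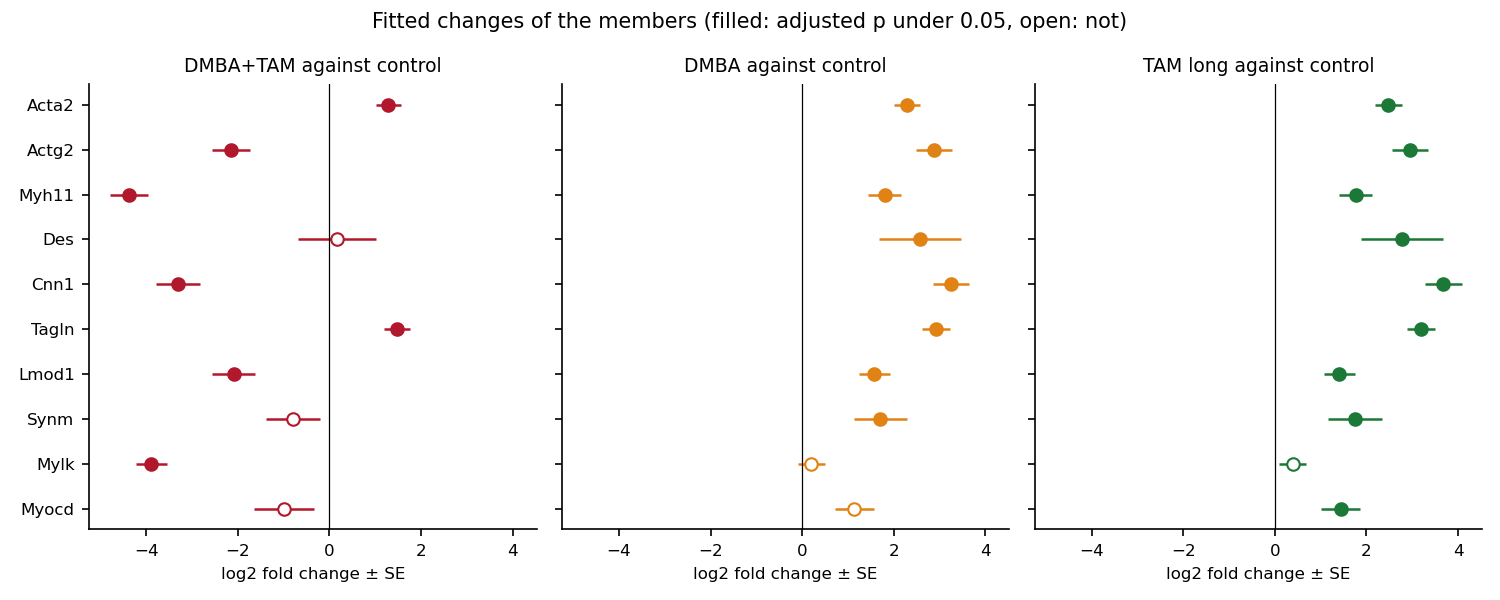
Fitted log2 fold changes against control with standard errors for the 10 members in DMBA+TAM, DMBA and TAM long, with filled points for an adjusted p under 0.05 and open points for the rest. In DMBA+TAM the members spread from -4.39 (Myh11) to 1.47 (Tagln), whereas in DMBA and TAM long no member lies below 0.

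To compare Acta2 with the other members directly, the Acta2 count of each library was used in place of the library size, so that a change is a change relative to Acta2 and the scaling of libraries cancels. The spread of Acta2 itself then enters each gene. In DMBA+TAM against control, 7 of the other 9 members were lower relative to Acta2 (56.1% of all genes were). The falls relative to Acta2 were -5.64 in Myh11 (standard error 0.57, adjusted p = 2.06e-21), -5.17 in Mylk, -4.60 in Cnn1, -3.43 in Actg2 (adjusted p = 2.24e-10), -3.33 in Lmod1, -2.24 in Myocd (adjusted p = 0.000700) and -1.97 in Synm (adjusted p = 9.45e-05), all on the log2 scale. Tagln did not depart from Acta2 by the test (log2 0.18, standard error 0.46, adjusted p = 0.738), and Des was at -0.97 (standard error 0.47, adjusted p = 0.0558). Des was called lower with limma on log2 ratios (log2 -2.22, adjusted p = 2.58e-06), with thinned counts (log2 -1.13, adjusted p = 0.0220) and with the replicate block (log2 -1.23, adjusted p = 0.0169). Without DMBA+TAM replicate 2, Des was at -4.43 relative to Acta2 (adjusted p = 1.68e-07) and Synm at -3.63, and without DMBA+TAM replicate 1, Des was at -0.03 and Synm at -1.21 (adjusted p = 0.0908). In this fit edgeR estimated infinite prior degrees of freedom, so that 1 spread was used for all genes of a given level and the spread of a member between its own libraries did not enter its p. The standard errors of Des and Synm were thus 0.47 and 0.47, against 0.85 and 0.59 in the fit scaled by library, where the prior degrees of freedom were 4.62. The adjusted p relative to Acta2 is too small for members whose DMBA+TAM libraries differ, and can be too large for members whose libraries lie close together. For Tagln, the log2 ratio of the Acta2 count to its count was 0.49 and 0.50 in control and 0.28 and 0.35 in DMBA+TAM.

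Against DMBA, 7 of the other 9 members were lower relative to Acta2 in DMBA+TAM (10.7% of all genes were), with Cnn1 at -5.55, Myh11 at -5.13, Actg2 at -4.00, Mylk at -3.04, Lmod1 at -2.62, Synm at -1.37 (adjusted p = 0.00917) and Des at -1.23 (adjusted p = 0.0216). Tagln (log2 -0.48, standard error 0.46, adjusted p = 0.398) and Myocd (log2 -1.08, standard error 0.62, adjusted p = 0.134) did not pass. The calls of Synm (log2 -0.62) and Des (log2 -0.30) were lost without DMBA+TAM replicate 1, and without replicate 2 the values were -3.03 and -4.69. In DMBA against control, 2 were lower relative to Acta2 (77.8% of all genes were), Mylk at -2.13 (adjusted p = 2.12e-05) and Myocd at -1.16 (adjusted p = 0.0241), the latter lost without any 1 of the 4 libraries (adjusted p of 0.0527 to 0.138). In TAM long against control, Cnn1 was higher relative to Acta2 (log2 1.16, adjusted p = 0.0152, 1.68% of all genes higher) and 3 were lower (82.4% of all genes), Mylk at -2.08, Lmod1 at -1.06 (adjusted p = 0.0198) and Myocd 2.01-fold lower (adjusted p = 0.0473). The calls of Lmod1 and Myocd were lost without any 1 of the 4 libraries. That of Cnn1 was lost without control replicate 1 (log2 1.09), control replicate 2 (log2 1.25) or TAM long replicate 2 (log2 0.95).

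The same contrast can be read library by library. The log2 ratios of the Acta2 count to the count of each of the other 9 were averaged within each library. This mean was 4.68 and 3.61 in DMBA+TAM, against 0.91 and 0.94 in control. In DMBA it was 1.16 and 1.29, in TAM long 1.31 and 1.22, and in TAM short 0.74 and 1.09. The difference from control was 3.22 in DMBA+TAM (4.15 ± 0.76 against 0.93 ± 0.02, SD, n = 2 each), 0.30 in DMBA and 0.34 in TAM long, and DMBA+TAM differed from DMBA by 2.92. Each of these has a two-sided exact permutation p of 0.333, the smallest that 2 against 2 libraries can give. The values of the single treatments depended on how the other 9 were combined. The log2 ratio to the summed counts of the 9 differed from control by 0.52 in DMBA and 0.56 in TAM long. The mean of the log2 ratios without Myocd differed by 0.19 and 0.25. The ratio to Actg2 was 17.4 and 16.7 in DMBA+TAM and 0.803 to 1.60 elsewhere. The ratio to Tagln was 1.22 and 1.27 in DMBA+TAM and 0.806 to 1.42 elsewhere, so that Tagln was the member whose ratio in both DMBA+TAM libraries lay within its range elsewhere. That range has a gap, with 1.41 and 1.42 in control and 0.806 to 0.964 in DMBA, TAM short and TAM long. The DMBA+TAM values lay in this gap. For Des the ratio was 24.4 in DMBA+TAM replicate 1 and 1.16 in replicate 2, the latter close to the 1.12 and 1.15 of control.

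**Figure D3:**
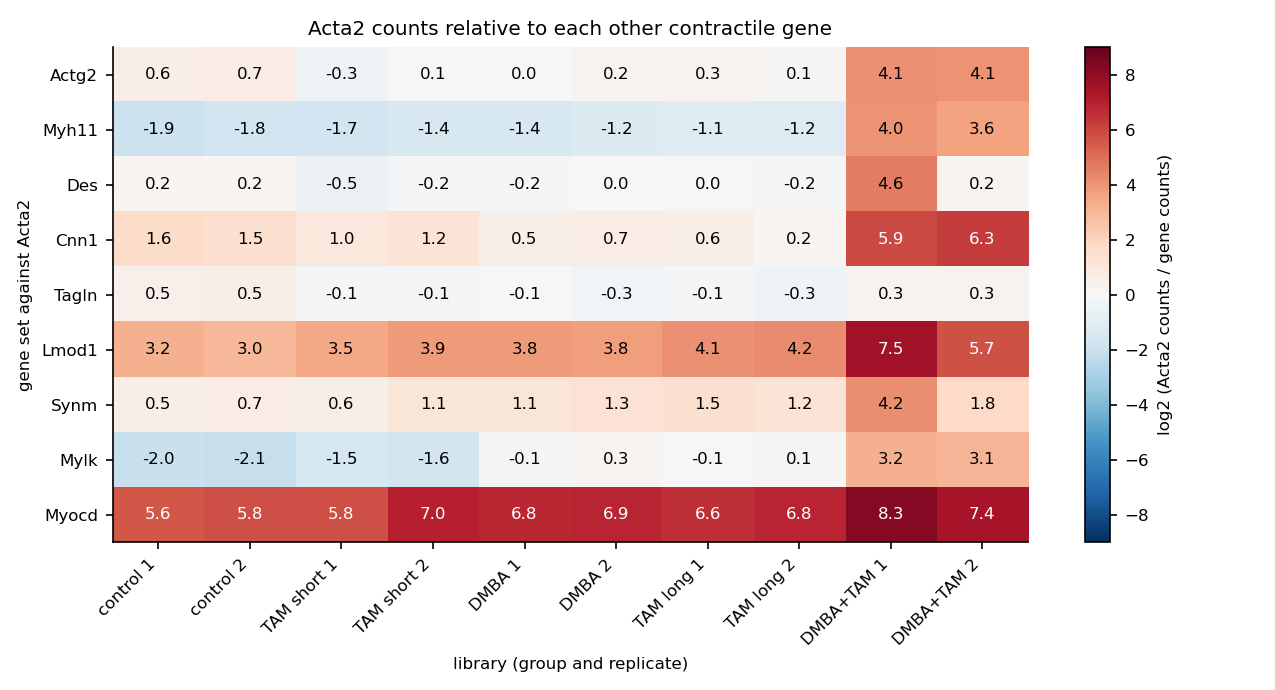
Log2 ratio of the Acta2 count to the count of each other member (rows) in each library (columns), red where Acta2 is the higher and blue where it is the lower. Both DMBA+TAM columns are the highest of their row for Actg2, Myh11, Cnn1, Lmod1, Synm, Mylk and Myocd, Tagln lies between -0.31 and 0.50 in all columns, and Des reaches 4.59 in DMBA+TAM replicate 1 against at most 0.21 in the other 9 columns.

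Levels of different genes were compared on the authors' FPKM, which is per length. Acta2 made up 46.3% and 31.8% of the summed FPKM of the 10 members in DMBA+TAM and 11.4% to 15.5% elsewhere, and Acta2 with Tagln 88.9% and 59.9% against 25.3% to 35.1%. By FPKM, Acta2 was the first of the members in both DMBA+TAM libraries (490 and 381 FPKM) and the third to the fifth in the other 8. In control, Mylk (171 ± 9.33), Actg2 (158 ± 19.4), Des (129 ± 15.2), Acta2 (127 ± 12.2), Myh11 (123 ± 22.2) and Tagln (101 ± 10.3 FPKM, SD, n = 2) were the highest. Of neighbours in this order, Actg2 and Des had libraries that did not overlap, and the libraries of the other neighbours overlapped. Cnn1 (32.6 ± 0.59), Synm (20.4 ± 3.82), Lmod1 (6.70 ± 0.09) and Myocd (1.55 ± 0.31) followed well below. In DMBA+TAM, Acta2 (435 ± 76.8) and Tagln (394 ± 81.7), which did not differ beyond their spread, were followed by Des (201 ± 251), whose libraries lay far apart, Actg2 (49.8 ± 7.37), Synm (16.3 ± 14.1), Mylk (16.2 ± 1.74), Myh11 (8.24 ± 0.27), Cnn1 (4.68 ± 1.63), Lmod1 (2.14 ± 1.46) and Myocd (1.08 ± 0.28). The order of the actins was thus turned, with Actg2 above Acta2 in the 8 other libraries and below it in DMBA+TAM. The coding sequences of Acta2 and Actg2 differ in 5 of 376 residues but share 83.8% of bases, and the longest run of identical bases is 29.

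The members also moved together within groups. In DMBA, 10 of 10 members were higher in replicate 1 than in replicate 2 (median ratio 1.71) and in TAM short 10 of 10 (median 2.00), while in TAM long 0 of 10 were (median 0.665), in control 8 of 10 (median 1.13) and in DMBA+TAM 5 of 10 (median 1.05). Over all genes, 47.6% to 50.1% were higher in replicate 1. The summed levels of 4 marker lists, of pericytes, fibroblasts, myofibroblasts and endothelium, were ordered the same way within DMBA, TAM short and TAM long, and those of the other 5 cell type lists were not in at least 1 of these groups (interstitial cells of Cajal with 189 and 258 in DMBA, heart muscle with 5.53 and 7.73 in DMBA, epithelium with 22078 and 22816 and skeletal muscle with 14.4 and 16.7 in TAM short, and enteric neurons and glia with 54.7 and 43.9 in TAM long). For pericytes they were 994 and 489 normalized CPM in DMBA, 263 and 179 in TAM short and 1038 and 1184 in TAM long, and for fibroblasts 2274 and 1992, 832 and 691, and 1295 and 1640. For myofibroblasts they were 733 and 567, 167 and 124, and 615 and 774, and for endothelium 132 and 114, 86.7 and 75.7, and 109 and 136. Their part in the order of the members was not tested.

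Other genes of the contractile apparatus, from lists of general knowledge, were counted in the same way. Of 20 filament and adhesion genes, 17 rose in DMBA and 17 in TAM long against control, and edgeR called 0 lower in either, against 24.5% of all genes higher and 23.3% lower in DMBA and 23.2% higher and 22.8% lower in TAM long. The median change was 1.59 and 1.58 on the log2 scale. In DMBA+TAM against control 11 rose and 3 fell (median 1.17), where 29.0% of all genes rose and 35.3% fell, and against DMBA 5 were higher and 10 lower (median -0.79), where 25.2% of all genes were higher and 29.9% lower. The 4 with the highest mean level differed among themselves. Caldesmon (Cald1), an actin- and myosin-binding regulator, rose in DMBA+TAM against control from 155 ± 16.2 normalized CPM to 737 ± 47.9 (SD, n = 2 each, log2 2.25, adjusted p = 0.000314), as it did in DMBA (log2 1.87). Tropomyosin 1 (Tpm1) was at 0.01 in DMBA+TAM against control (adjusted p = 0.993), a mean of libraries that lay apart on both sides of control (540 ± 266 against 538 ± 26.4 normalized CPM, SD, n = 2 each), and rose in DMBA (log2 1.28, adjusted p = 0.0147), and filamin A (Flna) was at 0.45 (adjusted p = 0.201) and 1.44 (adjusted p = 0.00289). The light chain Myl6 was at -0.27 and 0.28, and passed in neither (adjusted p = 0.115 and 0.130).

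Of 18 genes of calcium, kinase and phosphatase control, 1 rose and 7 fell in DMBA+TAM against control (median -0.34), whereas 10 rose and 2 fell in DMBA and 12 rose and 2 fell in TAM long. Of all genes, 24.5% rose and 23.3% fell in DMBA and 23.2% rose and 22.8% fell in TAM long, and the 7 falls of 18 in DMBA+TAM are a share near the 35.3% of all genes. Ppp1cb, a catalytic subunit of myosin phosphatase, fell in DMBA+TAM (log2 -0.82, adjusted p = 0.000241), and so did the calcium pump Atp2a2 (log2 -0.45, adjusted p = 0.0163). Rhoa (log2 0.17) and its kinase Rock2 (log2 0.15) did not pass. Of 7 transcription factors of smooth muscle, 2 rose and 3 fell in DMBA+TAM against control, shares near the 29.0% and 35.3% of all genes, with Mef2c, a MADS-box factor, at 3.00 (adjusted p = 1.35e-05) and Gata6, also a factor of the epithelium, at -3.17 (adjusted p = 1.62e-06). The level of serum response factor (Srf) was 59.9 in control against 71.7 normalized CPM in DMBA+TAM (log2 0.26, adjusted p = 0.142), and rose in DMBA (log2 0.60, adjusted p = 0.00569) and TAM long (log2 0.61). Its cofactor gene Mkl2 was at 0.09 in DMBA+TAM against control (adjusted p = 0.585).

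Among the other actins, the cytoplasmic Actb was lower than in control in DMBA+TAM (2.00-fold, adjusted p = 0.000401), DMBA (log2 -0.92) and TAM long (log2 -1.06), and Actg1 was at -0.37 (adjusted p = 0.0520), 0.17 and -0.03. Heart actin Actc1 had 0.527 and 0.440 normalized CPM in DMBA+TAM, from 1 count each and under the floor of 3 counts, and 2.35 to 4.15 elsewhere. Acta1 had 1.13 and 1.32 in control, 7.84 and 6.05 in DMBA, 4.51 and 9.32 in TAM short, 2.67 and 1.96 in TAM long, and 0.527 and 2084 in DMBA+TAM. Its DMBA libraries lay above control without passing the test (log2 2.50, standard error 2.21, adjusted p = 0.380).

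Over the 10 libraries, Acta2 was closest to Tagln among the members (Pearson r = 0.98 of log2 normalized CPM, a description of 10 libraries that share 5 groups) and least like Mylk (r = 0.17) and Myh11 (r = 0.37). Among 10098 genes, those most like Acta2 were Enah, Itga1, Dixdc1, Sparcl1 and Sema3a (r from 0.984 to 0.989). Like Acta2, these had levels in DMBA+TAM between the other groups, for example Sparcl1 with 514 normalized CPM in DMBA and 597 in TAM long, 172 in control and 322 in DMBA+TAM. Those most like Myh11 were Pgm5, Muc4, Rims1, Pde3a and Fbxl22 (r from 0.987 to 0.997), with Pgm5, a protein of adhesion plaques, at 216 in DMBA and 194 in TAM long, 79.6 in control and 3.08 in DMBA+TAM. Muc4, a mucin of the epithelium, had no count in DMBA+TAM.

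**Figure D4:**
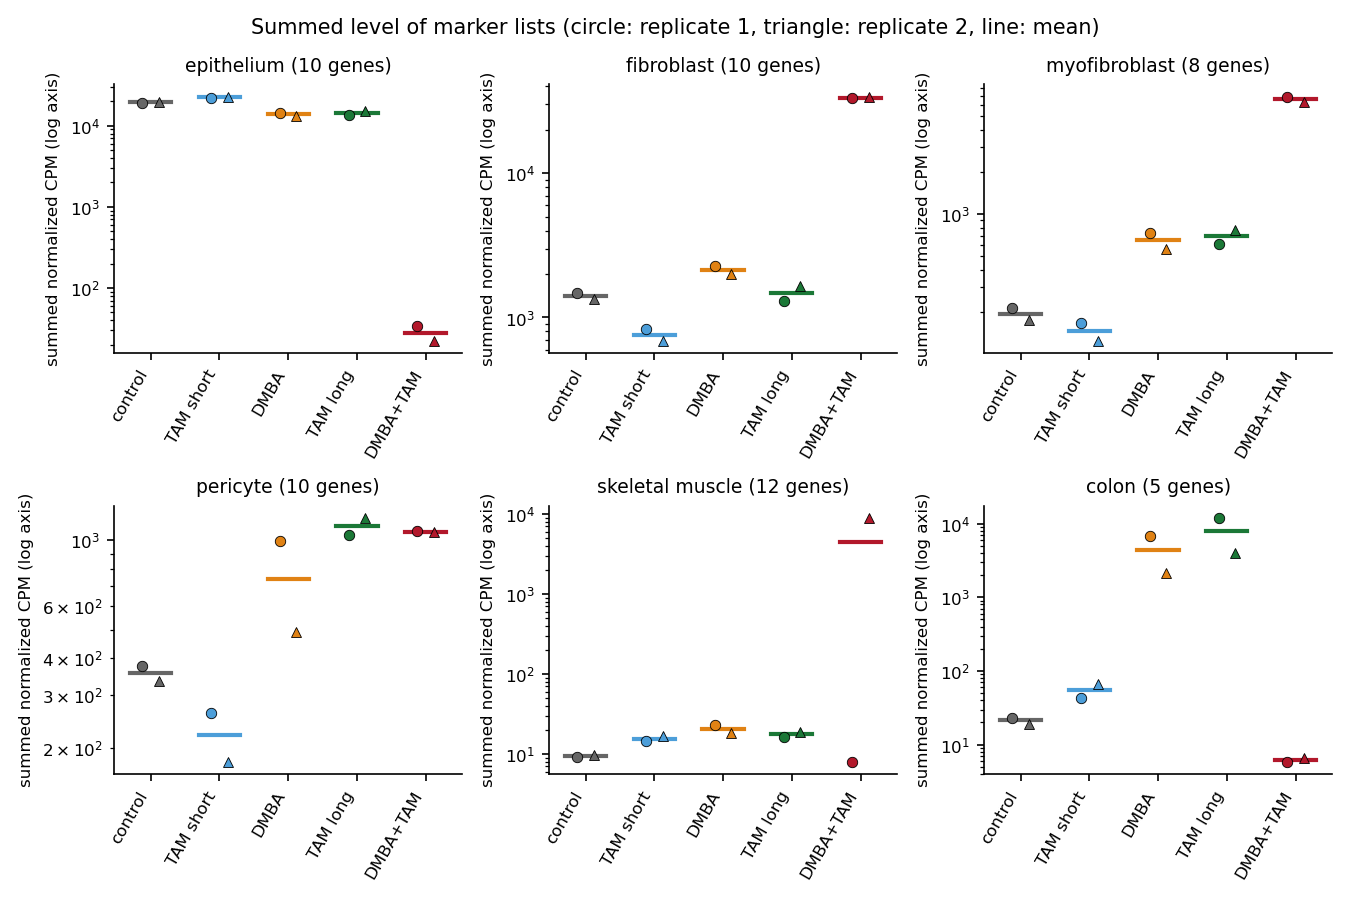
Summed normalized CPM (log axis) of 6 marker lists in each library, with circles for replicate 1, triangles for replicate 2 and a line for the mean of 2. In DMBA+TAM the epithelial list is at 33.7 and 22.4 and the fibroblast list at 33038 and 33911, the skeletal muscle list separates its replicates (7.90 and 8855), and the colon list is high in DMBA and TAM long.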

How the data were processed

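RNA-seq libraries were made from poly-A RNA with the NEBNext Ultra kit. Per the labels and the study's methods, the authors mapped reads to GRCm38.p6 with TopHat, counted reads per gene with HTSeq and computed FPKM from count and gene length. The deposited table holds raw counts and FPKM for each library, and the authors' own fold changes and p-values, which were not used. Whether counting used strand is not given in the sources used here. By GENCODE M21, Tagln shares 1349 of its 1988 exon bases with genes on the opposite strand, Mylk 772 of 11263, Synm 510 of 7933 and Des 220 of 3754, so that reads of these partners may be included.

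edgeR 4.0.16 (R 4.3.3) was run on the deposited counts (filterByExpr by group, TMM, factors from 0.832 to 1.19, a mean for each of 5 groups over 10 libraries, Benjamini-Hochberg over 16179 genes, threshold 0.05). The standard error is the log2 fold change divided by the square root of the F statistic. Changes relative to Acta2 used the log of its count as offset. Log2 ratios used a pseudocount of 0.5 counts. Poisson intervals (95%) and the floor of 3 counts cover counting error only. Alternatives were DESeq2 1.42.0, limma 3.58.1 on log2(FPKM + 1) or log2(FPKM + 0.1), library size only, no filter, a fit of only the groups compared, a block for the replicate number, thinned counts (added after seeing the data) and each library left out, where a lone library is assumed to vary like the others. The edgeR fits, scaled by library and relative to Acta2, were also run on simulated counts, and the outcome is not reported here. All members were named, with the 4 genes of highest mean level from each companion list, the 4 other actins, and the 5 genes closest to Acta2 and Myh11 among genes at or above 10 normalized CPM on average. The members and lists were chosen with earlier results of these data known. Figures were drawn with matplotlib 3.10.9 in Python 3.11.15.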

Additional observations from a re-analysis of the deposited data

Results flagged for a closer look

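Tamoxifen was compared with the same control in the set labelled short and in the set labelled long, and the effects on all 10 members differed by the test of TAM long against TAM short (edgeR, adjusted p from 8.01e-05 to 0.0463), a comparison added after seeing the data. The difference was 2.79 in Acta2, 2.42 in Actg2, 2.31 in Myh11, 2.50 in Des, 3.51 in Cnn1, 2.89 in Tagln, 2.25 in Lmod1, 2.23 in Synm, 1.16 in Mylk and 2.25 in Myocd on the log2 scale, with the libraries of the 2 sets not overlapping. The call of Des was lost without any 1 of the 4 libraries (adjusted p from 0.0660 to 0.228), with DESeq2 and with limma, and those of Synm (log2 1.78 and 1.74) and Mylk (log2 0.98 and 0.89) without TAM long replicate 2 or TAM short replicate 2. The colon list was at 11839 and 4033 summed normalized CPM in TAM long and 43.2 and 67.5 in TAM short, and tamoxifen set and segment markers cannot be told apart.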

How the results depend on the processing

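Most values kept direction and side of the threshold. Of the values for single members, 54 calls were lost and 8 gained on leaving out 1 library, and 21 lost and 21 gained under other settings. Not among the 8 gained is Des in DMBA+TAM against control, which turned sign. It went from an uncalled 0.16 to a called -2.99 without DMBA+TAM replicate 2, and was at 1.07 without replicate 1. Counts of members that moved by over 1.5 times include those of TAM short against control, where 1 member was higher and 4 were lower with no filter on low counts, 2 lower when only the groups compared were fitted, 1 lower with DESeq2, and 0 to 1 lower on leaving out a library. On leaving out a library, DMBA+TAM against TAM short had 1 to 2 members higher and TAM long against control 5 to 9. By less than that, DMBA against control had 6 to 10 higher, DMBA+TAM against control 5 to 7 lower (also 7 with no filter on low counts) and DMBA+TAM against DMBA 7 to 10 lower on leaving out a library. Relative to Acta2, DMBA against control had 1 higher (Cnn1) with the replicate block and with limma and 0 to 1 higher and 1 lower on leaving out a library, and TAM long against control 0 to 1 higher and 1 lower. Scaling by library size only raised the median of all genes from -0.17 to 0.31 in DMBA+TAM against control, from 0.07 to 0.37 in DMBA and from 0.05 to 0.37 in TAM long. Acta2 was then at 1.78 in DMBA+TAM, and 2 members were higher and 5 lower as before.

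The log2 ratio of Acta2 to the summed counts of the other 9 differed from DMBA by 2.26 in DMBA+TAM. Against control, the difference in this ratio was 0.52 in DMBA and 0.56 in TAM long. The mean of the 9 log2 ratios differed from control by 0.30 in DMBA and 0.34 in TAM long. Without Myocd this mean differed by 0.19 and 0.25, and without Des by 0.37 and 0.41. The causes were not tested.

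Deviations of same-numbered libraries correlated at 0.29 for DMBA and TAM long and from -0.049 to 0.083 for the other pairs of groups. Replicate numbers thus did not pair the libraries across all groups, and whether they pair DMBA with TAM long is not given in the sources used here. With the replicate block, Myocd was called in DMBA against control (log2 1.11, adjusted p = 0.0371), and the calls of Lmod1 against TAM short (log2 -1.20, adjusted p = 0.0591) and Des in TAM long against TAM short (log2 2.42, adjusted p = 0.0533) were lost.

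Depth limits the members in DMBA+TAM most, where Myocd rests on 4 and 7 counts and Lmod1 on 7 and 24. With 2 libraries a group, no exact permutation p can go below 0.333.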

Other observations

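Lists of cell types that lie beside smooth muscle in the gut wall were measured too. Of 3 genes of interstitial cells of Cajal, the pacemaker cells of gut muscle, 3 rose in DMBA and 3 in TAM long against control (edgeR), with summed levels of 112 to 258 normalized CPM there and 26.9 to 37.8 in the other 6 libraries. Over all genes, 24.5% rose in DMBA and 23.2% in TAM long. Of 7 genes of enteric neurons and glia, 5 rose in DMBA and 4 in TAM long. Of 8 endothelial genes, 7 rose in DMBA+TAM against control (29.0% of all genes), with summed levels of 673 and 667 against 75.7 to 136 in the other 8 libraries. Of 5 heart muscle genes, 2 passed the filter on low counts, and the summed level lay between 4.28 and 7.73 in all 10 libraries.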
